A study of Mus musculus with 7 samples.

Results

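The genes of the cytosolic ribosomal proteins were followed through early osteoblast induction in C3H10T1/2, an established mouse line of mesenchymal cells with bone, cartilage, fat and muscle potential. They were chosen by symbol from the 54532 features of the count table. A gene was taken when its symbol is Rpl or Rps with a number and at most a short suffix, or is Rplp0, Rplp1, Rplp2 or Rpsa, and names ending in -ps and the Rps6k kinases were left out. This gave 89 genes. Of these, 31 encode proteins of the small (40S) subunit and 46 proteins of the large (60S) subunit, the 3 stalk genes Rplp0, Rplp1 and Rplp2 included. A further 6 are paralogues of such genes (Rpl3l, Rpl7l1, Rpl10l, Rpl22l1, Rpl39l and Rps27l). The last 6 are annotated as processed pseudogenes although their symbols lack -ps (Rps4l, Rps12l1, Rpl32l, Rps3a2, Rps3a3 and Rpl6l). Fau, which encodes a ribosomal protein fused to a ubiquitin-like protein, and Rack1 carry other names and were read separately.

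Control is the name of 3 libraries from untreated cells. OB is that of 4 libraries from cells induced over 3 days, with 10 mM β-glycerophosphate, 50 µM ascorbic acid, dexamethasone (a glucocorticoid) and penicillin-streptomycin added to the medium. All cells were of the 1 line and grew in MEM with serum, and the antibiotic is named only for the OB medium. Replicates are called biological in the design text, and a p-value here reflects only how these libraries vary. The descriptions of control 1 and OB 1 start with C1, those of control 2 and OB 2 with C2, and those of control 3, OB 3 and OB 4 carry no C number. These label sets are used below, and the labels do not say what they stand for.

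A cytosolic ribosome holds 1 copy of nearly every ribosomal protein, and the 2 acidic stalk proteins in more than 1 copy, so that cells make these proteins in matched amounts. Their messenger RNAs are among the most abundant of a growing cell. Most of them start with a C followed by a run of pyrimidines, the 5′ terminal oligopyrimidine tract, through which mTOR signalling and the LARP1 protein control their translation and stability. The genes are short and highly expressed, and the mouse genome holds many reverse-transcribed copies of them.

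Total counts were 21213328 to 46530017 per library, and 3 counts equal 0.0639 to 0.139 CPM, the count relative to the TMM-scaled library total. Stromal marker genes summed to 21620 to 37780 CPM per library. Macrophage, endothelial and epithelial markers summed to at most 4.91, 9.45 and 4.16 CPM, and Adgre1 and Epcam had 0 counts in every library. The 17 cell cycle genes summed to 1166, 2777 and 3611 CPM in control 1 to 3 and to 752 to 846 CPM in OB, and 11 of them were lower in OB, against 3.72% of all genes. Fewer cells of a type and less RNA per cell cannot be told apart in such bulk RNA.

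A smaller share of all counts fell on the ribosomal protein genes in OB than in control. The 89 genes took 5.61%, 5.12% and 6.35% of the gene counts in control 1, 2 and 3. They took 3.87%, 4.59%, 5.03% and 5.05% in OB 1, 2, 3 and 4. The lowest control library lay above the highest OB library, although control 2 and OB 4 were close. The means were 5.69% ± 0.618 (SD, n = 3) in control and 4.63% ± 0.550 (SD, n = 4) in OB, a difference of -1.06 percentage points, so that the control share was 1.23 times the OB share. Within the C1 and C2 libraries the difference was -1.13 percentage points, and within the libraries with no C number it was -1.31. A share summed over the genes was given no test. Counting error is far below this spread at these depths.

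**Figure D1:**
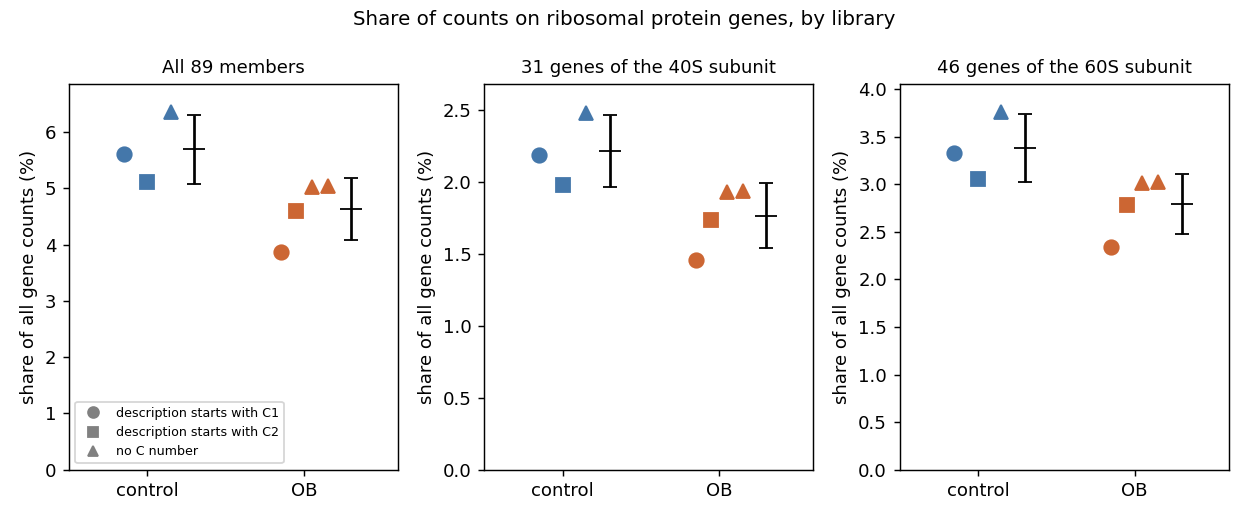
Share of all gene counts (percent, axis from 0) on all 89 genes, on the 31 genes of the 40S subunit and on the 46 genes of the 60S subunit, with 1 point per library and the shape giving the start of its description. The horizontal bar and whiskers are the mean ± SD of 3 control or 4 OB libraries, and in each panel every control library sits above every OB library.

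Both subunits had the smaller share. The 40S genes went from 2.21% ± 0.252 (SD, n = 3) to 1.76% ± 0.224 (SD, n = 4) and the 60S genes from 3.38% ± 0.354 to 2.79% ± 0.319. The ratio of 40S to 60S counts was 0.656, 0.647 and 0.660 in control and 0.622, 0.624, 0.641 and 0.639 in OB. Every OB library had a lower ratio than every control library, with means of 0.631 ± 0.00976 and 0.654 ± 0.00646. The 60S sum includes Rpl12, which took 0.112%, 0.0821% and 0.0836% of the counts in control 3, OB 3 and OB 4. In the other libraries Rpl12 took at most 0.00438%. This lowers the ratio in the libraries with no C number, and the separation of the groups in the ratio depends on Rpl12 being included. Ribosomal protein pseudogenes named with -ps took 0.254% ± 0.0147 of the counts in control and 0.183% ± 0.0211 in OB. The mitochondrially encoded genes, which are transcribed from another genome, had the larger share in OB (1.84% ± 0.110 against 1.59% ± 0.0378), and with them left out of the total the difference in the share of ribosomal protein genes was -1.06 percentage points as well.

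Gene by gene, the shift was small, ran nearly always downwards, and seldom passed the test. By edgeR's quasi-likelihood test, with p-values adjusted by Benjamini-Hochberg over all 15441 genes tested, 3 of the 83 genes that passed the filter on low counts fell in OB and none rose. Over all genes tested, 3.72% were lower in OB (4.33% of the 6286 with a mean log2 CPM of 5 or more), so 3 of 83 is a share like that of the background. DESeq2 called 14 of 85 members lower, against 6.03% of all genes, and limma-voom 15, against 7.0%, and neither called one higher. None of the 83 had an unadjusted p under 0.05 in the upward direction and 36 had one in the downward direction, against 12.4% of all genes. The log2 fold change was below 0 for 82 of the 83, against 50.4% of all genes and 55.9% of those 6286 genes. Its median was -0.31 for the 83 genes, a level 19.3% lower, and -0.004 for all genes. In 40 of the 83 genes (48.2%) every control library lay above every OB library, and this held for 12.3% of all genes. In no member was every OB library above every control library, against 13.2% of all genes. These counts describe the genes and carry no test of the group.

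Among the genes that fell were Rpl28 and Rpl35. Rpl28 encodes a 60S protein, and its CPM were 702, 643 and 679 in control and 483, 539, 501 and 476 in OB. The libraries of each group lay close together, and the groups did not overlap. Its log2 fold change was -0.43 ± 0.10 (SE; edgeR adjusted p = 0.0379), a fall of 25.9%. Rpl35, which encodes a 60S protein near the exit of the peptide tunnel, had 461, 448 and 533 CPM in control and 302, 370, 351 and 356 CPM in OB. Its log2 fold change was -0.48 ± 0.12 (edgeR adjusted p = 0.0461). On mm10 Rpl28 (ENSMUSG00000030432) lies at chr7:4792874-4795066 and Rpl35 (ENSMUSG00000062997) at chr2:39001580-39005624, with counts taken over their exons. Both adjusted p-values lay close to the threshold of 0.05. Leaving out any 1 library left at most 1 of the 83 or 84 members tested past it. This was Rpl28 without control 3, and 0 members passed without any 1 of the other 6 libraries. The share of all genes past the threshold in these fits was not computed. Over these fits the adjusted p by edgeR ran from 0.0478 to 0.111 for Rpl28 and from 0.0720 to 0.120 for Rpl35. With the replicate number of the labels as a block, their adjusted p-values by edgeR were 0.0901 and 0.0657.

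The largest falls among the rest did not pass the main test. Rps2, a 40S protein gene, had 250, 259 and 374 CPM in control and 143, 164, 222 and 205 CPM in OB, with no overlap (log2 fold change -0.68 ± 0.20, edgeR adjusted p = 0.0787). Rpl22l1, the paralogue of Rpl22, had 87.4, 83.2 and 116 CPM in control and 52.8, 65.3, 73.2 and 65.2 CPM in OB (log2 fold change -0.58 ± 0.16, edgeR adjusted p = 0.0610). In both genes control 3 stood well above control 1 and 2, and OB 1 was the lowest library. Rps2 and Rpl22l1 were the 2 genes past the threshold with the replicate number as a block, with edgeR adjusted p = 0.0159 and 0.0435, and 3.38% of all genes were lower in that fit. The next were Rps27l (-0.50 ± 0.16, adjusted p = 0.0998), Rpsa (-0.48 ± 0.19, adjusted p = 0.152) and Rps19 (-0.48 ± 0.13, adjusted p = 0.0568), all by edgeR and all without overlap between the groups. Rps27l is a p53 target, Rpsa also serves as a laminin receptor, and Rps19 is the gene most often mutated in Diamond-Blackfan anaemia.

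**Figure D2:**
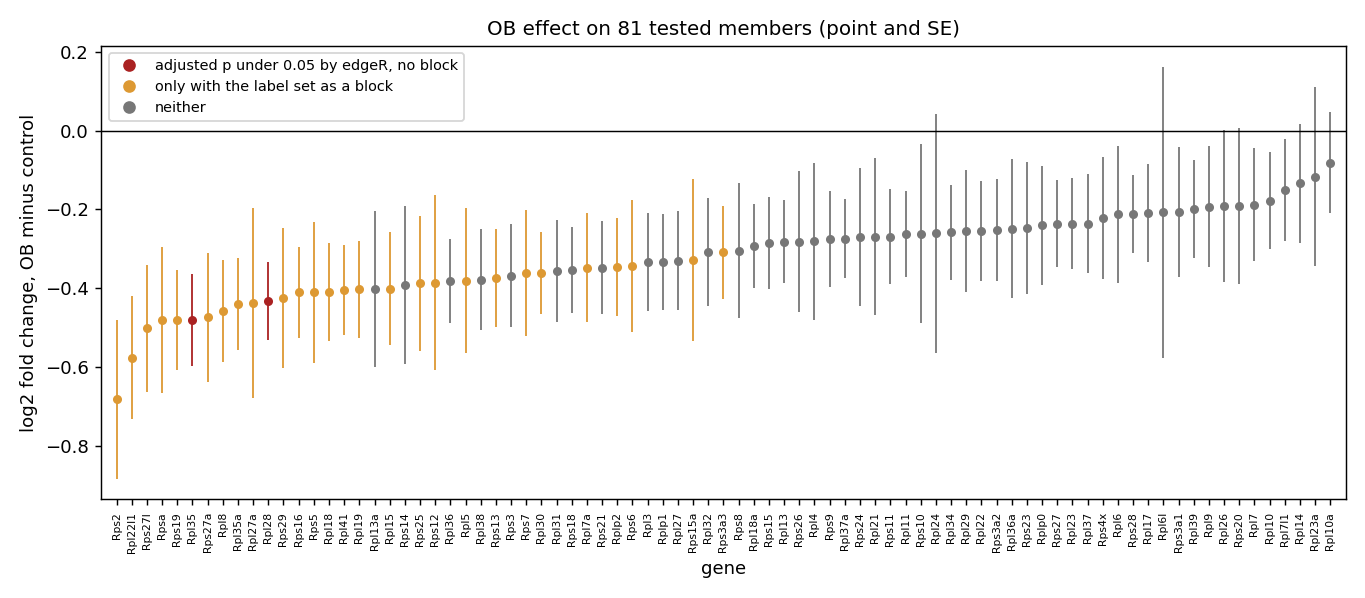
Log2 fold change (OB minus control) with its SE for 81 tested genes (Rpl12 and 1 further gene are not drawn), in order of size, coloured by whether the edgeR adjusted p was under 0.05 without a block or only with the label set as a block. All 81 points lie below 0, from -0.68 for Rps2 to -0.08 for Rpl10a.

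Part of the annotated start sites hold the pyrimidine tract the family is known for. The RefSeq promoter table of GRCm38.p6 held 64 of the 89 genes, and 34 of these had no such tract beginning within 5 bases of the start. The windows shown run from 10 bases before the annotated start to 20 after it, on the strand of the gene, and the longest run of a C followed by 4 or more C or T is in capitals. They are those of Rpl28 and Rpl35, which fell, of Rps6, whose protein is phosphorylated below mTOR, of Rps2, Rpl22l1 and Rps27l with the largest negative fold changes, and of Rpl12, the only tested gene with a fold change above 0.
Rpl28: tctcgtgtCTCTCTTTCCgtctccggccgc
Rpl35: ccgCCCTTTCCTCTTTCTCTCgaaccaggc
Rps6: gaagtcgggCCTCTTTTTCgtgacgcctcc
Rps2: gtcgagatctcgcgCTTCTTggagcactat
Rpl22l1: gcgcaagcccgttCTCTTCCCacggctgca
Rps27l: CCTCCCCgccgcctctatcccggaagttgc
Rpl12: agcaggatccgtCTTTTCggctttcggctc
The bases after the start belong to the first exon, and the gene models behind the counts can start elsewhere. In order, the windows lie at chr7:4792955-4792984 (plus strand), chr2:39005112-39005141 (minus), chr4:86857348-86857377 (minus), chr17:24720053-24720082 (plus), chr3:28805498-28805527 (plus), chr9:66946076-66946105 (plus) and chr2:32961702-32961731 (plus). The tract is 10 bases long in Rpl28 and Rps6, 18 in Rpl35, 8 in Rpl22l1, 7 in Rps27l, where it lies before the start, and 6 in Rps2 and Rpl12.

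A C with at least 4 further C or T began within 5 bases of the start in 46.9% of the 64 genes, against 21.2% of the 27025 genes of the table. CTCTTT on the gene strand, from 50 bases before to 50 after the start, was found in 29.7% against 4.68%, and CTTTC or CTTTTC in 59.4% against 17.9%. These searches overlap, since 1 tract can hold several of them. CCGGAAG on either strand of the whole window from 250 bases before to 50 after the start, the core of many ETS and GABP sites, was found in 40.6% against 9.93%, and GGGCGG on either strand in 60.9% against 38.2%. TATAAA on the gene strand in the 50 bases before the start was found in 1 of the 64 genes (1.56%, against 3.15%). Of the 30 genes with a tract at the start 29 were tested, with a median log2 fold change of -0.35 and 2 called lower. Of the 34 without one 31 were tested, with a median of -0.26 and 0 called lower. With 3.72% of all genes lower, these counts are too small to be read as a difference. With the label set as a block in the edgeR fit, 14 of the 29 and 9 of the 31 were lower, against 8.13% of all genes. No test of the difference between genes with and without a tract was made.

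Libraries of 1 group differed about as much as the groups. Relative to the mean of each gene over the 7 libraries, the genes lay on average at 0.15, 0.06 and 0.34 on the log2 scale in control 1, 2 and 3 and at -0.32, -0.07, -0.07 and -0.09 in OB 1, 2, 3 and 4. Control 3 was the highest of the 7 libraries in 67 of the 83 genes, and OB 1 the lowest in 65. The median log2 fold change was -0.23 without control 3 and -0.26 without OB 1, and lay between -0.33 and -0.39 without any 1 of the other libraries. Control 3 also had the highest summed CPM of the cell cycle genes, and the part of this in the result was not tested.

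**Figure D3:**
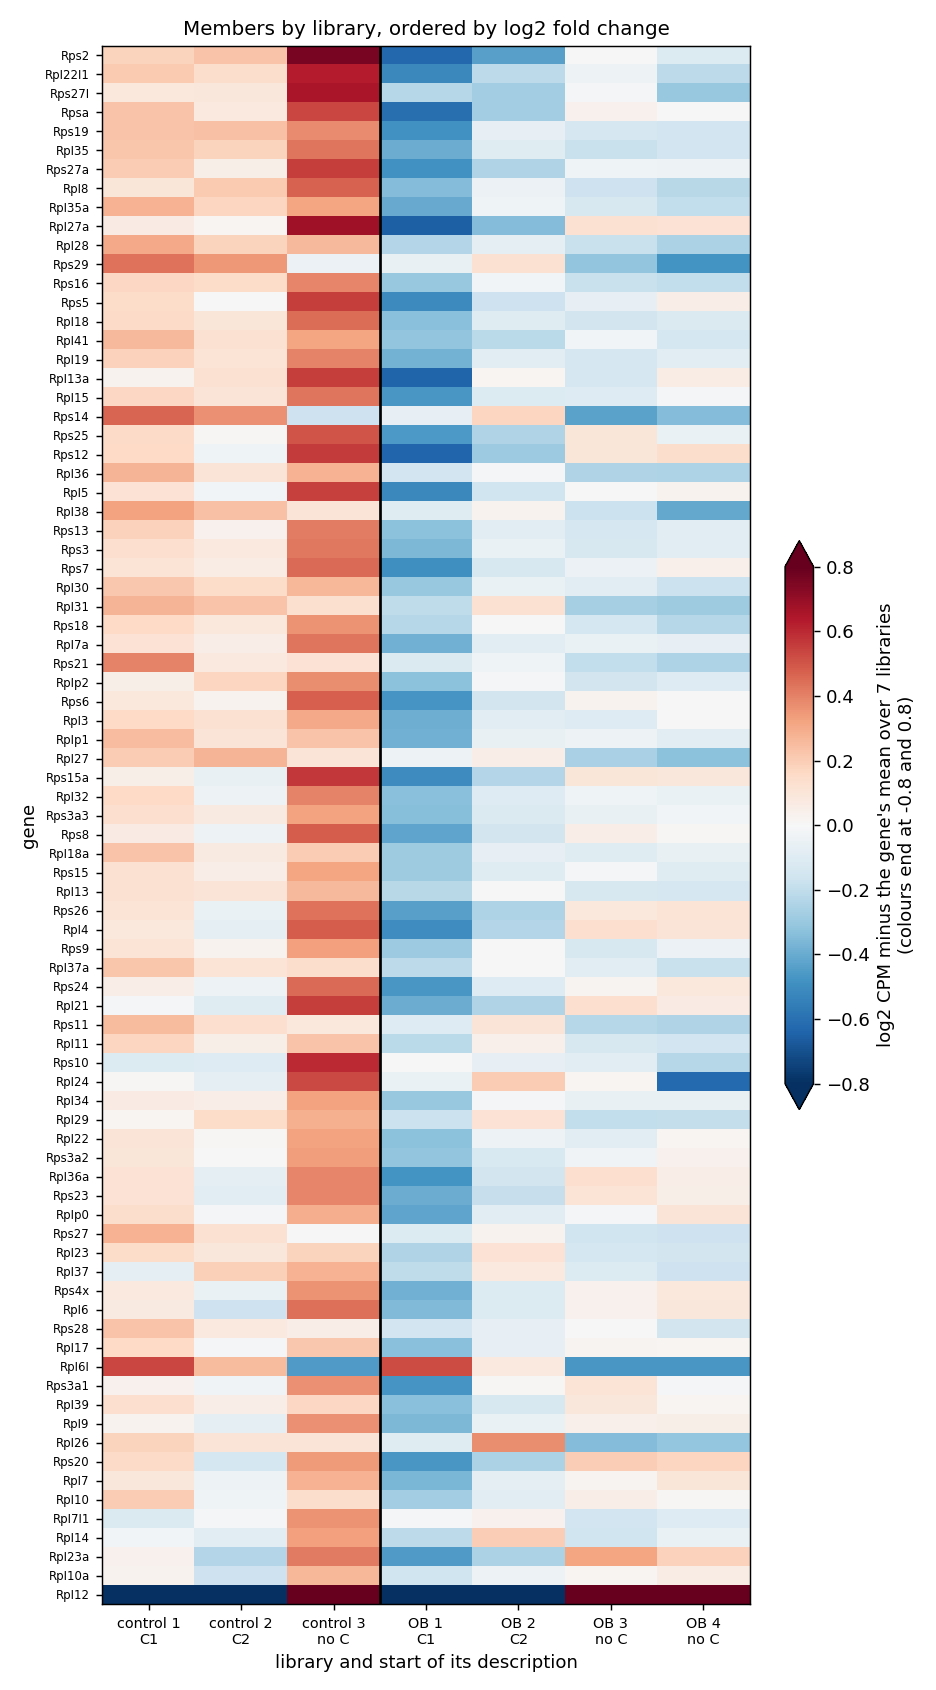
Log2 CPM of 82 of the 83 tested genes in each library, minus the mean of that gene over the 7 libraries, with genes in order of log2 fold change and the colour scale ending at -0.8 and 0.8. Control 3 is red and OB 1 blue in most rows, and Rpl12 in the last row is split by the start of the description and not by group.

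The genes moved together from library to library. The level of each gene was correlated over the 7 libraries with the mean of the other members, as a description in which all values share the same libraries. The median Pearson r was 0.92, and 58 of the 83 genes (69.9%) had an r above 0.8. Other tested genes, set against the mean of the members, had a median r of -0.02, with 1228 of 15358 (8.0%) above 0.8. Of the 6208 other genes with a mean log2 CPM of 5 or more, 692 (11.2%) were above 0.8. A shift common to all members made up 34.5% of their variance over the libraries, and 62.9% without Rpl12. Correlation was also seen within each group. With Rpl12 left out, the median r was 0.98 within the 3 control libraries and 0.87 within the 4 OB libraries. These values rest on very few points, and no such value was computed for other genes. Rpl7a followed the others most closely (r = 1.00). The lowest values were those of the pseudogene Rpl6l (r = -0.41), Rps14 (0.10), Rps29 (0.21), Rpl26 (0.26), Rpl12 (0.35) and Rpl27 (0.37).

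The genes outside the family whose log2 CPM over the 7 libraries was most like the mean of the 78 members with a mean log2 CPM of 5 or more were Fxr1 (r = 1.00), Anxa2 (0.98), Pmpcb (0.98), Sars (0.98) and Mindy4 (0.98), out of 12368 genes searched. Fxr1 encodes an RNA-binding protein, and had 88.97, 83.04 and 107 CPM in control and 63.2, 74.5, 81.1 and 78.3 CPM in OB. None of the 5 passed the test by edgeR (adjusted p = 0.164, 0.190, 0.260, 0.0773 and 0.249), and with so many genes and 7 libraries the order among them carries little.

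With the label set as a block in the edgeR fit, which compares control with OB inside each set, 30 of the 83 genes fell and none rose, against 8.13% of all genes lower. The 30 included Rpl28 and Rpl35, 14 of the 31 genes of the 40S subunit and 13 of the 46 of the 60S subunit. Rps2 was the largest and clearest of them (log2 fold change -0.76 ± 0.08, edgeR adjusted p = 0.00348). All 83 log2 fold changes were below 0 in this fit, with a median of -0.34. A further edgeR fit to all 7 libraries compared the groups within each kind of set, with 1 common estimate of the spread. Within the C1 and C2 libraries 10 genes fell, against 7.06% of all genes, with a median log2 fold change of -0.31. Within the libraries with no C number the median was -0.41. The second of these comparisons rests on control 3 alone, which is assumed to vary like the other libraries. It has no spread among controls of that set behind it, so only its effect size is given here. Of the 83 fold changes 78 were below 0 in both. Only Rpl7l1 passed the test of the difference between the sets (edgeR adjusted p = 0.0477, 1 of 83, against 6.5% of all genes).

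**Figure D4:**
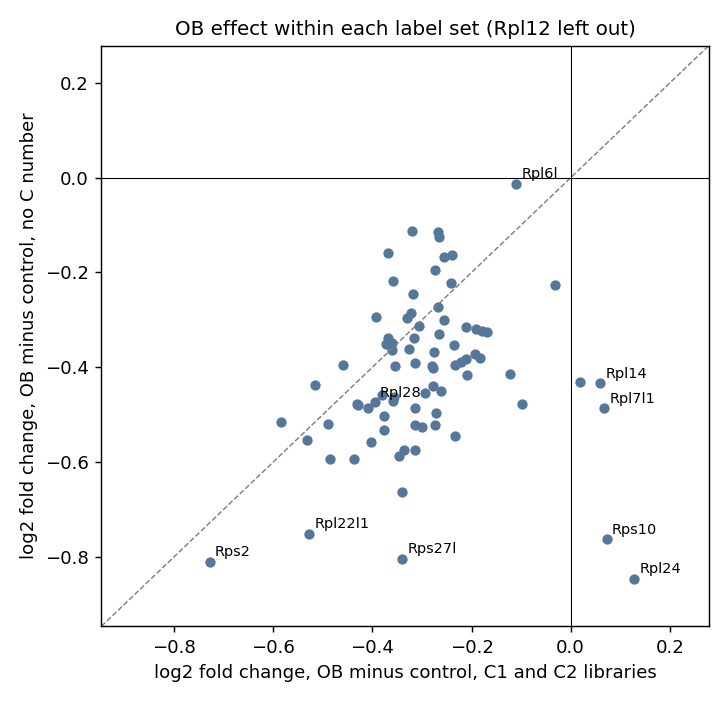
Log2 fold change (OB minus control) of the same 81 genes in the C1 and C2 libraries (horizontal) against that in the libraries with no C number (vertical), with the dashed line marking equal values. Nearly all points lie below 0 on both axes, while Rpl14, Rpl7l1, Rps10, Rpl24 and Rpl26 lie above 0 on the horizontal axis only.

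The label sets themselves differed for many members. At equal weight of control and OB, 25 of the 83 genes were higher in the libraries with no C number and 3 were lower (edgeR adjusted p under 0.05), against 13.4% and 15.4% of all genes. Rpl12, which encodes a protein at the base of the 60S stalk, differed most. It had 42.5 and 42.8 CPM in control 1 and 2 but 1137 CPM in control 3, and 34.9 and 44.7 CPM in OB 1 and 2 but 808 and 817 CPM in OB 3 and 4. The split cut across control and OB alike (log2 difference 4.54 between the sets, edgeR adjusted p = 1.04e-05), and for the other members this difference lay between -0.86 (Rpl6l) and 0.62 (Rpl27a). Its OB fold change was therefore undetermined in the fit without a block (log2 0.06 ± 1.45, edgeR adjusted p = 0.985) and -0.27 ± 0.12 with the label set as a block (adjusted p = 0.176). Gm10275, the pseudogene that shares most 50-base words with Rpl12, had 0.894, 0.570, 10.3, 0.813, 0.893, 8.48 and 8.98 CPM in the same order of libraries, so both were higher in the same 3 libraries.

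Rps14 and Rps29, both 40S protein genes, went the other way. Rps29 had 410 and 387 CPM in control 1 and 2 and 294 CPM in control 3, and 291 and 330 CPM in OB 1 and 2 and 244 and 218 CPM in OB 3 and 4. Within each set its control values were the higher ones, and the groups overlapped only across sets. The log2 difference between the sets was -0.43 for Rps29 and -0.51 for Rps14 (edgeR adjusted p = 0.0123 and 0.0103). Gm14303, the pseudogene nearest to Rps29, was 2.56 log2 units higher in the libraries with no C number (edgeR adjusted p = 0.000151), the opposite direction. Over 76 genes of the 2 subunits, Rpl12 left out, the difference between the sets went with the length of the principal transcript (Spearman rho = 0.48). The OB fold change did not go with length to a like degree (rho = -0.04). Both values are across genes, which are not independent. The median difference between the sets was 0.10 for the 19 shortest transcripts, 0.15 for the 38 in the middle and 0.39 for the 19 longest.

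**Figure D5:**
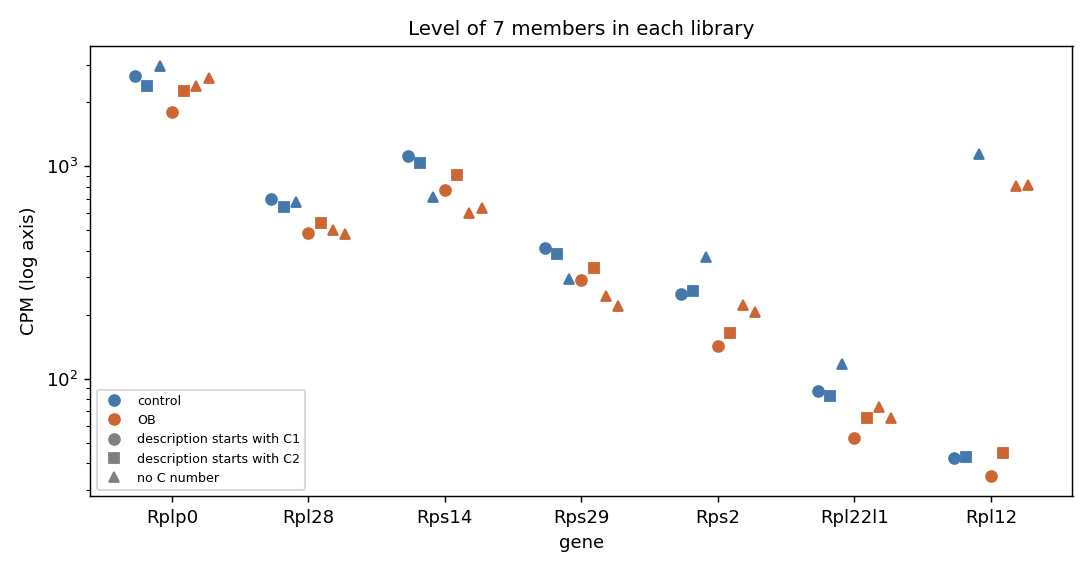
CPM (log axis) of 7 members in each library, with colour for the group and shape for the start of the description. Rpl28 separates by group, Rps14 and Rps29 are lower and Rps2 and Rpl22l1 higher in the control library with no C number than in the other control libraries, and Rpl12 splits by description.

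Copies of the family also held counts. Of the words of 50 bases in a member's principal transcript, a median of 51.3% also occurred in another gene for the 77 genes of the 2 subunits, with a range of 0% to 98.6% (Rps27). In 6 cases the closest non-member gene had more counts than the member. Among these, Rpl10l and Rps12l1 had 0 counts, and their closest genes averaged only 0.0113 and 0.298 CPM. Rpl29 (10.8 CPM) was closest to Uimc1 (40.3 CPM), which is not a ribosomal protein gene. Rps2 averaged 231 CPM and its pseudogene Rps2-ps10 949 CPM, Rpl26 averaged 17.3 CPM and Gm15772 548 CPM, and Rps18 averaged 46.4 CPM and Gm11361 226 CPM. Rps2-ps10 had 1240, 1198 and 1282 CPM in control and 643, 769, 794 and 719 CPM in OB, and fell by 0.76 on the log2 scale (edgeR adjusted p = 0.0110). Gm11361, which is annotated as protein-coding, fell as well (-0.45, edgeR adjusted p = 0.0399). Of 50 tested pseudogenes that were the closest copy of a member, 2 were lower in OB, Rps2-ps10 among them, and 0 were higher. Over all genes 3.72% were lower and 4.32% higher. Of these 50 pseudogenes 37 had an OB fold change below 0, with a median of -0.27. Among the genes that fell, 47.4% of the words of Rpl28 and 95.1% of those of Rpl35 occurred elsewhere. Of the exon bases of Rpl35, 66.2% overlap Wdr38, which had at most 1.15 CPM. Fragments in this overlap were assigned to neither gene, so the counts of both can understate them. How the reads were divided between members and copies was not tested. The 40 tested members with at most 50% of their words found elsewhere had a median log2 fold change of -0.29 and the other 43 a median of -0.33.

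Levels between genes were compared as TPM (counts per exon length, as a part of the sum over all genes), which are rough because the deposited length merges all exons of a gene, retained introns included. The highest mean TPM were those of Rplp1 (8762), Rplp0 (5109), Rps15 (4988), Rpl41 (4711) and Rpl17 (3426). The order depends on the length used. Per length of the principal transcript, Rpl41 came first (6514 TPM) and Rplp1 next (6039 TPM), while Rpl17 stood at 1380 TPM, below the median of 1680 TPM on that scale. Per merged exon length, the median of the 77 genes of the 2 subunits was 1097 TPM, with an interquartile range of 616.5 to 1844 TPM. The acidic stalk proteins Rplp1 and Rplp2 bind elongation factors, and Rplp0 anchors them. Rplp1 averaged 1420 ± 76.4 CPM in control and 1127 ± 120 CPM in OB (SD, 3 and 4 libraries), Rplp2 522 ± 59.8 and 410.3 ± 37.0 CPM and Rplp0 2660 ± 276 and 2251 ± 335 CPM. None of the stalk genes passed the test (edgeR adjusted p = 0.135, 0.129 and 0.359 in this order), and the groups overlapped for Rplp0 only. Rps27a, which is made as a fusion with ubiquitin, averaged 580.2 ± 107 CPM in control and 418 ± 59.0 CPM in OB, without overlap (edgeR adjusted p = 0.121). In all, 6 of the 77 genes averaged under 100 TPM, namely Rpl24, Rps10, Rpl29, Rpl26, Rps18 and Rpl13a. Rpl24 stood at 3.65 TPM and Rps10 at 8.92 TPM, and 47.0% and 28.7% of their exon bases overlap another annotated gene (Gm28037 and RPS10-NUDT3), where fragments were not assigned to either. Such values understate a gene whose fragments mostly fall where 2 genes overlap. The pseudogene Rpl6l lay between these 2 (4.66 TPM).

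The smallest changes after Rpl12 were those of Rpl10a (-0.08 ± 0.13), Rpl23a (-0.12 ± 0.23), Rpl14 (-0.13 ± 0.15) and Rpl7l1 (-0.15 ± 0.13), all log2 fold changes with SE, with edgeR adjusted p between 0.505 and 0.789. Among the paralogues, Rpl22l1 and Rps27l had larger fold changes than their partners. Rpl22 stood at log2 -0.25 ± 0.13 and Rps27 at -0.24 ± 0.11 (edgeR adjusted p = 0.251 and 0.227), against -0.58 for Rpl22l1 and -0.50 for Rps27l, and the differences were not tested. Rpl7l1 (87 TPM) was far below Rpl7 (1250 TPM). Rpl10l and Rpl39l, known from testis, had 0 counts in every library, as had the pseudogene Rps12l1, while Rpl10, Rpl39 and Rpl3 averaged 2210, 930 and 848 TPM. Rpl3l, the striated muscle paralogue of Rpl3, had at most 0.342 CPM, Rps4l had at most 0.372 CPM against 804 to 1344 CPM for Rps4x, and both went untested, as did Rpl32l.

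The other genes of the ribosome and of its supply were read from lists of the same fit. All 4 genes of the ribosome outside the rule on names, Fau, the 40S scaffold gene Rack1 and Rpl36al among them, had fold changes below 0, and 0 passed the test. Rack1 had 1172, 1101 and 1539 CPM in control and 764, 954, 1077 and 1156 CPM in OB, with overlap (log2 fold change -0.36 ± 0.18, edgeR adjusted p = 0.251). Of 42 translation factor genes 39 had fold changes below 0, with a median of -0.24, and 1 rose. This was Eif1a, an initiation factor gene that helps scanning, from 117 ± 21.3 to 198 ± 26.5 CPM (log2 fold change 0.75 ± 0.16, edgeR adjusted p = 0.0307). With 8.04% of all genes called in either direction, 1 of 42 is a smaller share than the background.

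Of 53 ribosome biogenesis genes 43 had fold changes below 0, with a median of -0.18. Of them 1 fell, no larger a share than the 3.72% of all genes that were lower. Their summed CPM were 3222, 3233 and 6192 in control 1 to 3 and 3489, 3302, 3714 and 3693 in OB 1 to 4. Of the control sums only that of control 3 lay above those of OB. Tcof1, which encodes a nucleolar protein needed for ribosomal RNA synthesis, went from 96.2 ± 18.3 to 57.5 ± 4.05 CPM (log2 fold change -0.74 ± 0.14, edgeR adjusted p = 0.0200). None of the 12 tested genes of RNA polymerase I transcription passed, with a median of -0.17. Ubtf went from 261 ± 19.1 to 218 ± 48.8 CPM and Polr1a from 83.5 ± 41.7 to 73.1 ± 9.08 CPM. None of the 9 genes for chaperones and import of ribosomal proteins passed. Kpnb1 stood at 599.6 ± 195 against 416 ± 16.8 CPM and Ipo5 at 262 ± 134 against 176 ± 22.5 CPM. The summed CPM of these 9 genes were 1149, 1297 and 2035 in control 1 to 3 and 1115 to 1155 in OB. None of the 7 tested hosts of small nucleolar RNAs passed either, Gas5 standing at 69.0 ± 19.7 against 54.2 ± 8.54 CPM and Snhg1 at 47.2 ± 21.5 against 43.6 ± 5.37 CPM. Of the 76 tested genes of the mitochondrial ribosome 65 had fold changes below 0, with a median of -0.16, and 0 passed (7 had an unadjusted p under 0.05). Mrps6, for which the label-set block gave adjusted p = 0.00765, was the largest exception upwards (log2 1.12 ± 0.32, edgeR adjusted p = 0.0712 without the block).

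Among 19 genes of mTOR signalling and the control of such messenger RNAs, 1 rose, a share near the 4.32% of all genes that were higher. Sesn1, a stress-induced inhibitor of mTORC1 that is also a p53 target, went from 65.9, 59.3 and 37.6 CPM in control to 134, 131, 117 and 136 CPM in OB. The groups lay far apart (log2 fold change 1.26 ± 0.19, edgeR adjusted p = 0.0120). The median of the list was 0.04. Of 9 genes of the MYC network 1 fell, Mxd3, a MAX partner, from 35.3 ± 17.8 to 9.90 ± 1.14 CPM (log2 fold change -1.83 ± 0.33, edgeR adjusted p = 0.0197), while 8 of the 9 had fold changes above 0. Of 13 genes of the p53 response, which free ribosomal proteins such as Rpl5 and Rpl11 are known to set off through MDM2, Sesn1 rose and Trp53 itself fell (log2 fold change -0.48 ± 0.12, edgeR adjusted p = 0.0486). Against 8.04% of all genes called in either direction, 1 of 9 and 2 of 13 are counts too small to be read as a result about these lists. Rpl5 stood at log2 -0.38 ± 0.18 and Rpl11 at -0.26 ± 0.11 (edgeR adjusted p = 0.243 and 0.177). With the replicate number as a block, 3 translation factor genes and 0 ribosome biogenesis or p53 response genes were lower, and 3 mTOR genes and 1 gene of the mitochondrial ribosome were higher, against 3.38% of all genes lower and 5.38% higher in that fit. With the label set as a block, 7 translation factor genes were lower, against 8.13% of all genes. The cell cycle genes that fell included Ccnb2, Cdc20 and Cenpf, at log2 -2.08, -2.16 and -2.31 (adjusted p by edgeR 0.0103, 0.0108 and 0.0127), and the part of dividing cells in the levels of the ribosomal protein genes was not tested.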

How the data were processed

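Per the labels, mRNA libraries were made with a TruSeq v2 kit. Trimmomatic, HISAT2, featureCounts and the mm10 build are named in the submitters' processing notes. The deposited counts, per the file headers, are unnormalised fragment counts per gene from featureCounts 1.6.4 over Ensembl 94 exons, without strand, multi-mapping or overlap options, so fragments shared by several genes were not counted. Columns were matched to samples by the input order of the counting command, a match that could not be checked independently. No pair of replicates agreed within sampling noise (chi-square per degree of freedom 14.7 to 170.4).

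Differences were tested with edgeR 4.0.16 under R 4.3.3 (filterByExpr, TMM factors 0.981 to 1.024, quasi-likelihood test, adjusted p threshold 0.05). The SE is the absolute log2 fold change over the square root of F. Log2 CPM used a prior count of 2. TPM used the deposited exon length. Alternatives used DESeq2 1.42.0, limma 3.58.1 and other scalings, blocks and library sets. The limma-voom fit gave each library a quality weight estimated from the data. Only the fit without a block was tested on simulated data, with seeded changes larger than those of most members. The simulated libraries also varied less than these, whose common biological coefficient of variation was 26.9%, and held no difference between label sets. Words of 50 bases came from GENCODE M21 transcripts.

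Deviations from the group means of same-numbered libraries correlated at 0.17, 0.52 and 0.40 for numbers 1 to 3, above 0.1 in each. Control 2 with OB 1 (0.21) and control 3 with OB 4 (0.27) were also above 0.1. The remaining pairs ran from -0.47 to 0.0975. OB 1 thus went more with control 2 than with control 1. The numbers follow the label sets. OB 4 has no control of its number.

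The members and lists were chosen with earlier results of these data known. Named were the called members, the 5 largest and 5 smallest log2 fold changes, the 5 highest and 3 lowest TPM, the stalk genes, Rpsa, Rps27a, the paralogue pairs, the called or most abundant genes of each list, and the 5 genes most like the members. Rps6, Rps14, Rps29, Rpl26, Rps18, Rpl5, Rpl11, Rpl7a, Rpl27 and the pseudogene copies were added after their values were seen. Results on single genes that meet this rule but are not named are not reported here.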

Additional observations from a re-analysis of the deposited data

Results flagged for a closer look

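Of 31 values tested for a library far from the rest of its group, 1 stood apart. Rplp1 had 948.5 CPM in OB 1, while the other OB libraries had 1166 to 1204 CPM, and chance alone marks about 1 in 20 such values. OB 1 was also the lowest of the 7 libraries for most members.

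The OB fold change of Rpl7l1 differed between the label sets, by -0.55 on the log2 scale (libraries with no C number minus C1 and C2 libraries, edgeR adjusted p = 0.0477). It was 0.07 within the C1 and C2 libraries and -0.49 within the libraries with no C number. The second value rests on control 3 alone, which had 111 CPM against 77.7 to 88.3 CPM in the other 6 libraries.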

How the results depend on the processing

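The number of members lower in OB was 3 in the main comparison. It was 1 with upper-quartile scaling. It was 30 with the label set as a block, 10 within the C1 and C2 libraries, 14 with DESeq2 and 15 with limma-voom. Of all genes 8.13%, 7.06%, 6.03% and 7.0% were lower in these comparisons, in that order. Within the libraries with no C number it was 27, against 17.0% of all genes. That count rests on control 3 alone, with no spread among controls of that set, and is not read as a result. The number of lower members was 2 with the replicate number as a block (replicate block), against 3.38% of all genes. It was 0 to 1 when single libraries were left out. None was higher in OB under any of these alternatives. The share of TPM differed by -2.10 percentage points where the share of counts differed by -1.06. The signs of 9 named members changed under some alternatives. Rpl12 had log2 fold changes of -0.24 with the replicate block, -0.27 with the label-set block, and -0.10 and -0.49 within the sets with and without a C number. When single libraries were left out, Rpl12 ran from -0.49 to 3.31, Rpl10a from -0.19 to 0.030, Rpl23a from -0.27 to 0.068, Rps10 from -0.40 to 0.0068 and Rpl6l from -0.45 to 0.021. The highest of these came without control 3, except for Rpl6l, where it came without control 1. With limma-voom Rpl10a and Rpl23a stood at 0.048 and 0.11. Within the C1 and C2 libraries Rpl14, Rpl24, Rpl7l1, Rps10 and Rpl26 stood at 0.060, 0.13, 0.067, 0.073 and 0.020. The cause was not tested for any of these. Scaling by DESeq2 size factors, or by TMM computed without the members, gave 3 lower members each, and 82 of the 83 log2 fold changes were below 0 under every scaling tried. The depth of every library was ample for the members, except for Rpl24, Rpl6l, Rps10 and the 6 untested genes, which had few or 0 counts.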
